A study of Mus musculus with 12 samples.

Results

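The 33 genes described here are factors of germ line identity, of the spermatogonial stem cell and of early germ cell differentiation, followed in the germ cells and somatic cells of the newborn mouse testis. They were chosen by name, not by a measured value, though earlier results of these data were known. All 33 were found by their gene symbol among the 54532 genes of the count table. RNA-seq had been run on 12 libraries in 4 groups of 3, each group a combination of a treatment with a sorted population, to ask what glucocorticoid signalling does in male germ cells. Dams received an intraperitoneal injection of 10 μg of dexamethasone (dex, an agonist of the glucocorticoid receptor) per gram, or the saline vehicle alone, on the gestation days E17.5 and E18.5. The male pups received the same agent under the skin at postnatal day 0, and testes were taken at postnatal day 1 (PN1). All animals carried a transgene in which Pou5f1 (OCT4) regulatory sequence without its proximal enhancer drives GFP, and the GFP-positive cells are called germ cells and the GFP-negative cells somatic cells. Each replicate was sorted from the testes of at least 2 litters that had been dosed separately, so the spread between replicates is a spread between pools of litters.

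At PN1 the male germ cells are prospermatogonia, which arise from primordial germ cells, rest in the cell cycle before birth, and then found the spermatogonial stem cell pool or enter differentiation directly. The stem cells are maintained by GDNF, a ligand made by somatic cells of the testis, which acts through the co-receptor GFRA1 and the receptor tyrosine kinase RET and raises transcription factors such as ETV5, BCL6B, LHX1 and ID4. Exit from the undifferentiated state is marked by NEUROG3, then by SOHLH1, SOHLH2 and the receptor KIT.

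Promoter sequence of 21 of the 33 genes was held in a RefSeq table (GRCm38.p6), as 24 promoters running from 250 bases before to 50 bases after the annotated start. Their median GC content was 62.2% against 52.7% over the 32851 promoters of the table, and their median density of the CpG dinucleotide was 5.67 per 100 bases against 2.33. The E-box CACGTG was in 3 of 24 (12.5%, against 7.15% of all promoters), GGCGGGA was in 4 (16.7%, against 11.3%), and AGAACA, the half-site letters of a glucocorticoid response element, was in 0 of 24 (0.0%, against 19.0%), each searched on both strands. None of the 3 motifs contains another. The promoters with GGCGGGA were those of Epcam and Tex14 and both of Kit, which overlap almost fully. For Gfra1, Lin28b, Nanos3, Prdm1 and Tex101, and for an alternative start of Etv5 and of Pou5f1, the window lay inside the gene body. The sequences upstream of the gene body are shown for Lin28a, Uchl1 and Utf1, which passed the test for a dex effect in germ cells, and for Dazl and Nanos2, which hold the CpG-rich and the CpG-free end of the 5. They are written 5′ to 3′ on the strand of the gene with each CpG in capitals, and the windows are chr4:134018842-134019066 (minus strand), chr5:66675871-66676090 (plus), chr7:139943606-139943788 (plus), chr17:50293637-50293870 (minus) and chr7:18987274-18987399 (plus), in that order.
Lin28a: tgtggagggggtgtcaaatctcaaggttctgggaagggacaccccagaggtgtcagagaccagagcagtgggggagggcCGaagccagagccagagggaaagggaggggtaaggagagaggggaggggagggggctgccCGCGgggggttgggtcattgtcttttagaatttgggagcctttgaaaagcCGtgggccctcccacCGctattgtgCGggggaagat
Uchl1: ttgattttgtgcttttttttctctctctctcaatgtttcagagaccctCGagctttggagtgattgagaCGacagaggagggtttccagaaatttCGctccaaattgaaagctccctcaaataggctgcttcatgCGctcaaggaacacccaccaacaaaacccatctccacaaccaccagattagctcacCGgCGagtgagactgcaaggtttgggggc
Utf1: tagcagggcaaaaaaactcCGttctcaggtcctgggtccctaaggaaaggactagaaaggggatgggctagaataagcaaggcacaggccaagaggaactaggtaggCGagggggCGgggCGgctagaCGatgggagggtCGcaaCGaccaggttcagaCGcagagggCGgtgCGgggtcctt
Dazl: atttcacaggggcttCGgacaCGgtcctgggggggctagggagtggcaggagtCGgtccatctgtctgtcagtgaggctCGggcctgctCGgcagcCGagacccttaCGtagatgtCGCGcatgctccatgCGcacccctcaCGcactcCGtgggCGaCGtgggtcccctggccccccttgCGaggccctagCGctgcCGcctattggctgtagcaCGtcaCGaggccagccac
Nanos2: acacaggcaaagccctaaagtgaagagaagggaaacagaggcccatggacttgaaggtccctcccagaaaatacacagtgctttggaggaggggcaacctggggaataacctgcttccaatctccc
The Lin28a and Uchl1 stretches held 6 CpG each, Utf1 held 10 in 183 bases, Dazl held 19 in 234 bases and Nanos2 held 0 in 126 bases. These are descriptions of letters in a window and say nothing on whether a factor binds there.

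The libraries held 18459692 to 25178477 counts assigned to genes. A floor of 3 counts, used as the limit that a count of 0 allows, was worth 0.114 to 0.165 CPM (counts scaled to library size, with TMM factors over all 12 libraries) in a single library. The sorted populations matched their labels: 8 germ cell markers summed to 2295 to 2439 CPM in germ cell libraries and to 4.15 to 9.24 CPM in somatic libraries. A set of 8 Sertoli cell markers summed to 4367 to 5086 CPM in somatic libraries, to 59.1 to 71.5 CPM in saline germ cell libraries and to 36.8 to 48.3 CPM in dex germ cell libraries. Of these 8, all had a negative dex effect in germ cells and Inha fell. In germ cell libraries 6 Leydig markers summed to 9.07 to 11.8 CPM with saline and 4.83 to 8.79 with dex, and 5 erythroid markers to 7.70 to 9.22 and 4.16 to 7.06 CPM. Peritubular and stromal markers summed to 111 to 158 CPM with saline and 132 to 139 with dex in these libraries. Endothelial markers summed to 48.9 to 58.7 and 51.9 to 65.4 CPM, and macrophage markers to 3.48 to 6.39 and 4.29 to 4.56 CPM. In the somatic cells 7 peritubular and stromal markers summed to 8099 to 10960 CPM with saline and 12677 to 15248 CPM with dex, 6 Leydig markers to 119 to 199 and 84.3 to 171 CPM, and 5 macrophage markers to 40.2 to 71.2 and 18.6 to 23.7 CPM. In bulk RNA, fewer cells of a type and less RNA per cell cannot be told apart.

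Levels of different genes were compared per length, as the deposited FPKM in saline germ cells. Uchl1, a deubiquitinase used as a marker of gonocytes and spermatogonia, was at the top with 394 ± 39.5 FPKM (SD, n = 3), and Dazl, an RNA-binding protein needed for germ cell development, followed with 313 ± 28.0. Dmrt1, a transcription factor shared by germ and Sertoli cells, had 143 ± 9.76, Ret 115 ± 7.62 and Sohlh1 109 ± 12.7 FPKM. These 5 genes were above 100 FPKM, 20 lay between 10 and 100, and 8 were at or under 10. The low end held Tfap2c (6.57 ± 1.68 FPKM), Lin28b (6.26 ± 0.66), Eomes (5.62 ± 1.25), Prdm1 (3.04 ± 0.79), Nanos2 (1.89 ± 0.45), Prdm14 (1.59 ± 0.44), Dppa3 (0.83 ± 0.48) and Neurog3 (0.54 ± 0.09). The highest mean was 728 times the lowest, but in 22 of the 32 neighbouring pairs of the order the libraries overlapped, both in the middle of the order and at its low end. The GDNF receptor genes Ret and Gfra1 (68.0 ± 7.41 FPKM) stood well above Kit (12.9 ± 0.69), the receptor of differentiating spermatogonia. The specification factors of primordial germ cells, Prdm1, Prdm14 and Tfap2c, were all under 10 FPKM.

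**Figure D1:**
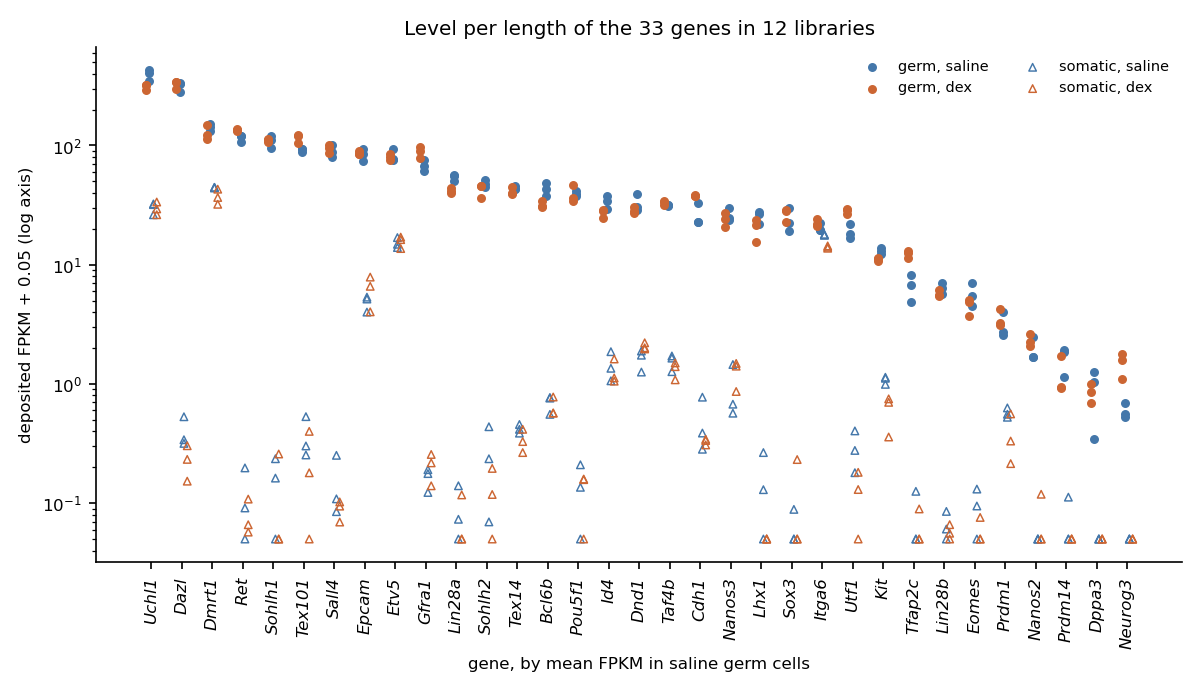
Deposited FPKM plus 0.05 on a log axis for each of the 33 genes, ordered by the mean in saline germ cells. Filled circles are germ cell libraries and open triangles somatic libraries, in blue for saline and orange for dex, with 3 libraries a group. Germ cell levels run from 394 FPKM for Uchl1 to 0.54 for Neurog3, and the somatic points of Itga6 lie next to its germ cell points.

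Between germ cells and somatic cells of saline testes, 32 of the 33 genes had enough counts to be tested and 31 were higher in germ cells. Of all 18870 genes tested, 39.8% were higher and 36.7% lower in germ cells at an adjusted p of 0.05 (edgeR quasi-likelihood test, Benjamini-Hochberg adjustment). The exception was Itga6, a laminin receptor subunit used to enrich spermatogonial stem cells. It measured 178, 204 and 175 CPM in germ cells and 162, 176 and 164 CPM in somatic cells. These values overlapped, with a log2 difference of 0.08 ± 0.08 (SE) and an adjusted p of 0.365. Dppa3, a maternal and primordial germ cell factor, was not tested: it had 0.89, 0.27 and 1.07 CPM in germ cells and no count in somatic cells. The median log2 difference of the 32 genes was 6.87, against 0.07 for all genes tested, and 6.06 with the 2 tested genes that had no somatic count set at their bound. With 10 counts asked of every library, 16 of the genes were tested and 15 were higher in germ cells. The other genes passed the filter only through their germ cell counts, so their direction was set in advance.

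Among the RNA-binding proteins and pluripotency factors, the log2 difference was 10.20 ± 0.27 for Lin28a, an inhibitor of let-7 microRNA maturation, 8.40 ± 0.35 for its paralogue Lin28b, 9.67 ± 0.18 for Dazl and 9.61 ± 0.27 for the zinc-finger factor Sall4. Nanos2, a translational repressor that keeps male germ cells in the male and undifferentiated state, had 2.58, 3.79 and 2.54 CPM in germ cells and 0 counts in saline somatic cells, which makes it at least 21.2-fold higher. Nanos3, its relative in primordial germ cells, had a smaller difference of 4.83 ± 0.30. Pou5f1 had 8.68 ± 0.30 and only checks the sort, since its promoter drove the GFP. Dnd1, which binds with NANOS2 to RNA, had 4.25 ± 0.18, and its counts need care: exons of Wdr55 on the other strand overlap it, and Wdr55 had 431% of the Dnd1 counts in somatic libraries against 81.2% in germ cell libraries.

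Of the GDNF pathway, Ret (10.59 ± 0.33) and Gfra1 (9.12 ± 0.17) were at under 0.2% of their germ cell level in the somatic cells. The transcription factors downstream differed more among themselves: Lhx1 had 7.77 ± 0.37, Bcl6b 5.92 ± 0.16, Id4 4.47 ± 0.19 and Etv5 2.31 ± 0.11. Etv5 is also a Sertoli cell factor, and its somatic level was 19.3% of the germ cell level. The T-box factor Eomes had 6.98 ± 0.45.

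The differentiation factors spanned a similar range. Sohlh1 had 9.85 ± 0.27 and Sohlh2 7.80 ± 0.32, both basic helix-loop-helix factors of differentiating spermatogonia. Sox3, a factor of committed progenitors, had 46.3, 61.5 and 39.4 CPM in germ cells and 2 counts in all 3 saline somatic libraries together, a ratio of 1648 with a counting interval of 456 to 13610. Neurog3 was at least 6.49-fold higher in germ cells, with 0 somatic counts. Kit had 3.52 ± 0.11 and was still at 8.30% of its germ cell level in somatic cells.

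Among the remaining genes, the log2 difference was 8.01 ± 0.19 for Tex101, a germ cell surface glycoprotein, 7.87 ± 0.53 for Tfap2c, 6.76 ± 0.11 for Tex14, a component of germ cell bridges, and 6.20 ± 0.29 for Utf1, a chromatin factor of undifferentiated cells. Prdm14 had 5.86 ± 0.75, Cdh1 (E-cadherin) 5.75 ± 0.30, Taf4b, a subunit of a germ cell TFIID complex, 4.27 ± 0.12, Epcam, an epithelial adhesion molecule, 4.01 ± 0.14 and Uchl1 3.58 ± 0.11. Prdm1 had 2.41 ± 0.23, and Dmrt1 had 1.57 ± 0.08, the smallest called difference of the 31. Some large differences rested on few somatic counts. In the saline somatic libraries Prdm14 had 0, 4 and 0 counts, Tfap2c 0, 0 and 6, Lin28a 0, 9 and 2 and Lin28b 2, 8 and 0. Over the alternative fits the log2 difference ran from 1.33 to 9.37 for Prdm14 and from 2.83 to 9.96 for Lin28b. The SE does not cover this spread. These genes were called in all 14 alternative fits that tested them. They passed the filter only through their germ cell counts, so those calls cannot speak for their direction, and their size is uncertain.

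The somatic level of a gene was set beside that of the 8 germ cell markers, whose saline somatic mean was 0.0545% to 1.29% of the germ cell mean, with a median of 0.192%. A total of 19 of the 33 genes were at or under the highest marker and 14 were above it. Only Itga6 (90.2%), Dmrt1 (32.3%), Etv5 (19.3%) and Prdm1 (17.9%) were above 10%. The 19 low genes together had 129, 246 and 129 counts in the saline somatic libraries and 96, 67 and 107 in the dex ones, or 6.35, 10.7 and 6.15 against 5.27, 3.31 and 5.29 CPM. Replicate 2 of the saline somatic cells was the highest of the 6.

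**Figure D2:**
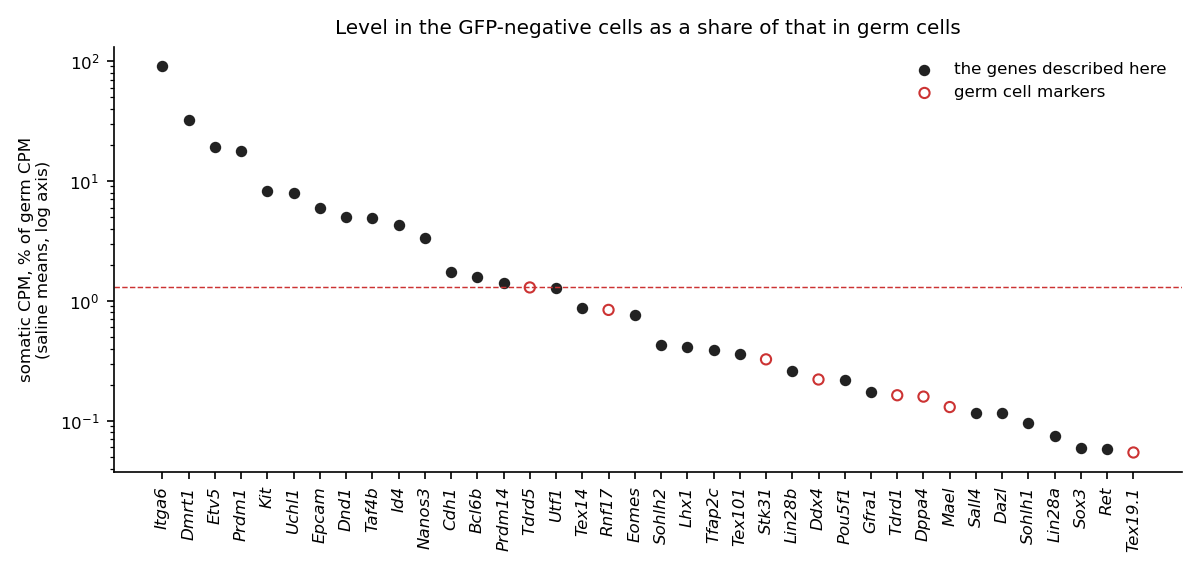
Mean level in saline somatic cells as a percentage of the mean in saline germ cells (log axis), for the genes described here (black) and 8 germ cell markers (open red circles); the dashed line is the highest marker, at 1.29%. Nanos2, Neurog3 and Dppa3, with no count in the saline somatic libraries, are left out. Itga6, Dmrt1, Etv5 and Prdm1 stand above 10%.

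In germ cells, dex changed 6 of the 33 genes, all of which were tested: Tfap2c, Utf1 and Cdh1 rose, and Lin28a, Bcl6b and Uchl1 fell. Over all 18550 genes tested, 0.739% rose and 0.507% fell. The changes were under 2-fold. The 33 effects were balanced, with 16 positive, 17 negative and a median log2 fold change of -0.03, against -0.0027 for all genes. At an unadjusted p under 0.05 there were 13 of the 33 genes, against 14.7% of all genes, and in 12 of the 33 the dex and saline libraries did not overlap, against 20.1% of all genes.

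**Figure D3:**
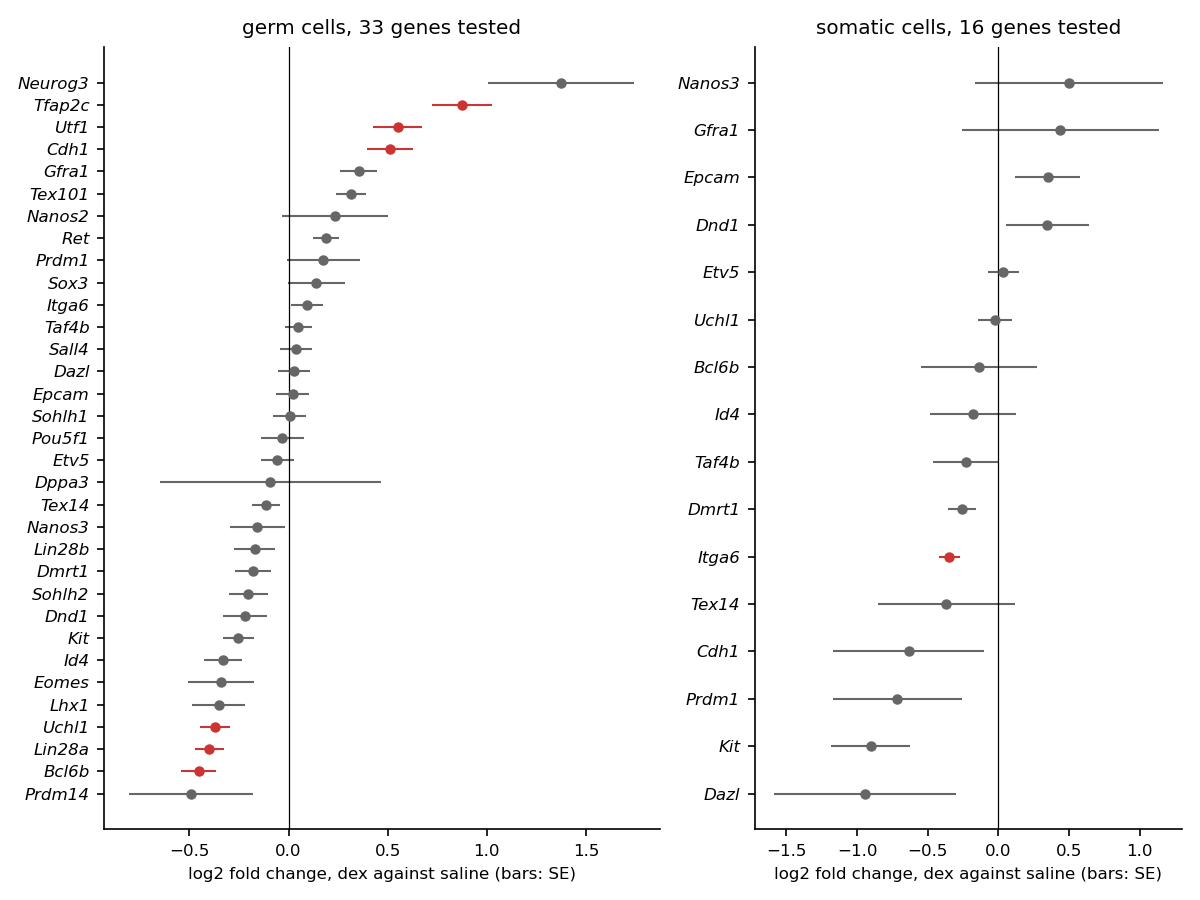
Log2 fold change of dex against saline (points) with its SE (bars) in germ cells (left) and somatic cells (right), for every gene with enough counts to be tested; red marks an adjusted p at or under 0.05. In germ cells 3 red points lie on each side of 0, and in somatic cells Itga6 is the single red point.

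Tfap2c encodes AP2γ, a factor of primordial germ cell specification that is kept in undifferentiated spermatogonia. It measured 24.9, 17.9 and 30.0 CPM with saline and 45.7, 47.4 and 41.1 CPM with dex. Every dex library was above every saline library. The log2 fold change was 0.87 ± 0.15 (1.83-fold, adjusted p = 0.0121). Utf1 measured 20.6, 22.5 and 26.8 CPM with saline and 32.5, 34.9 and 35.6 CPM with dex. The groups were again apart, with a log2 fold change of 0.55 ± 0.12 (adjusted p = 0.0448). Cdh1, an adhesion protein of undifferentiated spermatogonia, measured 105, 150 and 105 CPM with saline and 176, 171 and 171 CPM with dex. The saline libraries were spread and the dex libraries tight, and the log2 fold change was 0.51 ± 0.11 (adjusted p = 0.0457).

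Lin28a measured 203, 224 and 226 CPM with saline and 164, 176 and 157 CPM with dex. Its dex libraries were all lower, and it fell by 0.40 ± 0.07 on the log2 scale (adjusted p = 0.0159). Lin28b, from 51.0, 63.0 and 56.7 to 49.9, 48.5 and 54.3 CPM, overlapped between the groups and did not pass (log2 fold change -0.17 ± 0.10). Bcl6b, a transcriptional repressor of the GDNF response, measured 161, 141 and 178 CPM with saline and 115, 126 and 112 CPM with dex. It fell by 0.45 ± 0.09 (adjusted p = 0.0233), with no overlap. Uchl1, the most abundant of the genes per length, measured 575, 668 and 693 CPM with saline and 518, 471 and 519 CPM with dex. It fell by 0.37 ± 0.08 (adjusted p = 0.0316).

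These 6 calls depended on the fit and on single libraries. None was kept with limma on log2 FPKM, where 6 and 12 of all genes passed (pseudocount 0.1 and 1), against 231 in the main fit. None was kept with all 12 libraries in 1 fit either, where 142 of all genes passed. Without dex replicate 1 or dex replicate 3 only Tfap2c was still called, and without saline replicate 1 none of the 3 that rose was, while Lin28a and Bcl6b had adjusted p of 0.0525 and 0.118 and Uchl1 was still called. Without saline replicate 2 the calls were Tfap2c, Bcl6b and Cdh1, and without saline replicate 3 they were Tfap2c, Lin28a and Utf1. Without dex replicate 2, Tfap2c, Lin28a and Bcl6b were called, together with Gfra1 (0.0213) and Tex101 (0.02), which were not called with all libraries. The highest adjusted p with 1 library left out was 0.0731 for Tfap2c, 0.093 for Lin28a, 0.118 for Bcl6b, 0.143 for Uchl1, 0.224 for Utf1 and 0.229 for Cdh1. The direction of all 6 was kept in each of the 15 alternative fits. The Sertoli, Leydig and erythroid marker sums, each lower in every dex than in every saline germ cell library, moved with these results and their part in them was not tested. The peritubular and stromal, endothelial and macrophage sums overlapped between the dex and saline germ cell libraries. Some markers were not low in germ cells. With saline, Pecam1 was at 158% of its somatic level, Alas2 at 89.7%, Cd68 at 41.7%, Kdr at 41.2% and Tie1 at 37.7%. Star was at 18.1% and Cdh5 at 10.4%, and the highest of the rest was Cyp11a1 at 4.995%. Of the 6 called genes, Uchl1 had a saline somatic level of 7.97% of its germ cell level. The rest of the 6 were at or under 1.74%.

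**Figure D4:**
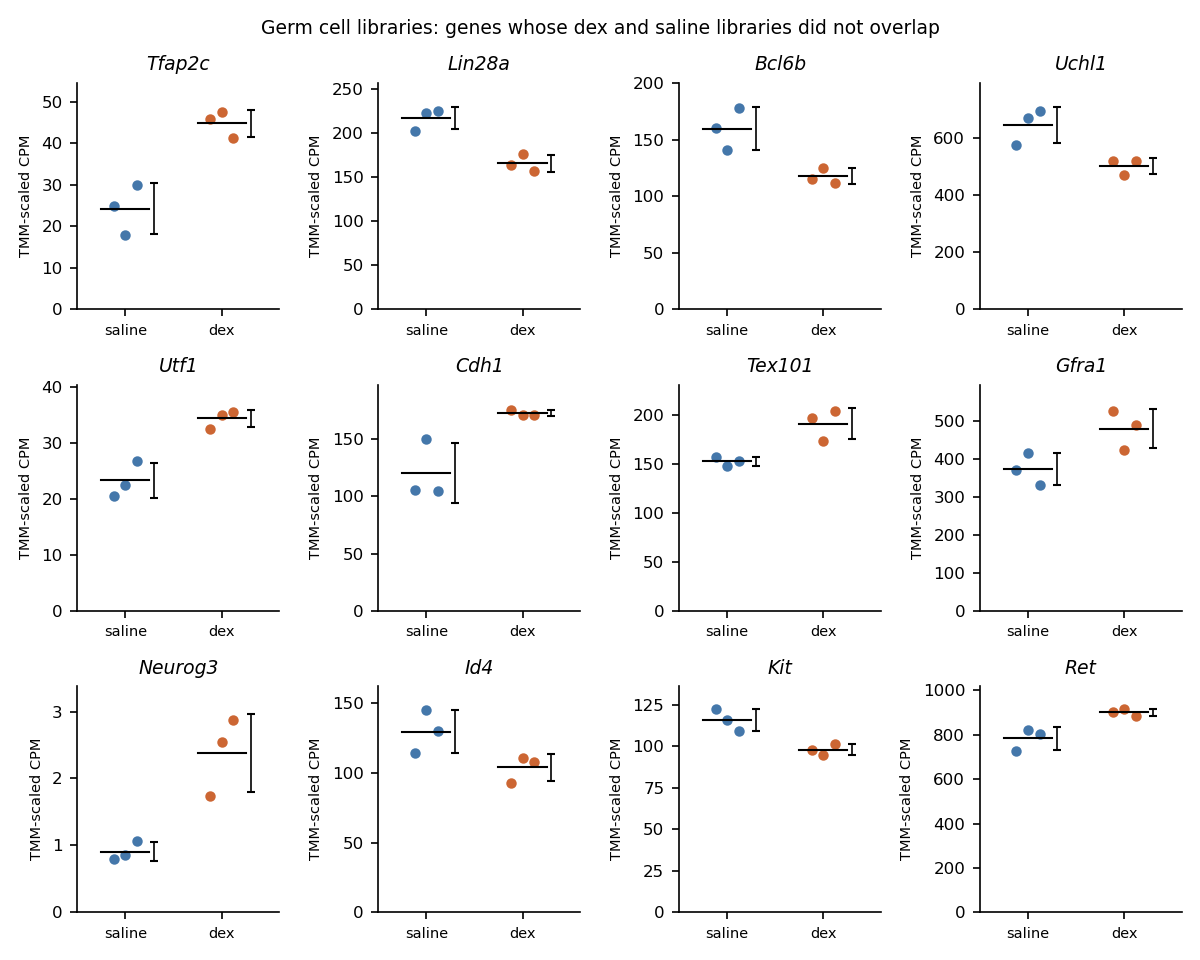
TMM-scaled CPM in each germ cell library for the 12 genes whose dex and saline libraries did not overlap, ordered by p; points are the 3 libraries of a group, horizontal lines the mean and brackets the SD. The first 6 panels, Tfap2c to Cdh1, are the genes called at an adjusted p of 0.05.

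For the GDNF receptor and the factors it acts on, both receptor genes had positive effects that did not pass the test. Gfra1 measured 370, 417 and 333 CPM with saline and 527, 425 and 491 CPM with dex, a log2 fold change of 0.35 ± 0.09 (adjusted p = 0.0809). Ret measured 726, 819 and 804 CPM with saline and 900, 917 and 883 CPM with dex, a log2 fold change of 0.19 ± 0.06 (adjusted p = 0.171). In both, the groups did not overlap. Of the factors downstream of the receptor, Bcl6b fell and the other three did not pass. Id4, an inhibitor of DNA binding that marks stem cells, measured 114, 145 and 130 CPM with saline and 93.0, 111 and 108 CPM with dex (log2 fold change -0.33 ± 0.10, adjusted p = 0.107). Lhx1, a homeobox factor named after its values were seen, measured 90.1, 109 and 113 CPM with saline and 86.3, 96.8 and 62.5 CPM with dex (-0.35 ± 0.13, adjusted p = 0.221), and its groups overlapped. Etv5, an ETS factor, measured 320, 384 and 309 CPM with saline and 326, 311 and 344 CPM with dex (-0.06 ± 0.08, adjusted p = 0.811), with a 95% interval from -0.22 to 0.11.

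Of the differentiation factors, Kit measured 122, 116 and 109 CPM with saline and 97.7, 94.7 and 101 CPM with dex. Its groups did not overlap, with a log2 fold change of -0.25 ± 0.08 (adjusted p = 0.137). Neurog3, named after its values were seen, had the highest fold change of the 33 and few counts. It measured 0.80, 0.85 and 1.07 CPM with saline and 1.74, 2.54 and 2.87 CPM with dex (log2 fold change 1.38 ± 0.37, adjusted p = 0.0856). Exons of Fam241b on the other strand overlap Neurog3 and had 4028 germ cell counts against 220 for Neurog3. Whether the counting used strand is not given in the sources used here, so without it the reads of the overlap could not be told apart; Fam241b had a log2 fold change of 0.42 ± 0.12 (adjusted p = 0.0978), and in somatic cells it had 225 counts where Neurog3 had 0. Sohlh1 had a log2 fold change of 0.01 ± 0.08, Sohlh2 of -0.20 ± 0.10 and Sox3 of 0.14 ± 0.15, none of which passed.

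Among the pluripotency and germ line identity genes, Pou5f1 measured 87.6, 84.9 and 93.4 CPM with saline and 81.1, 76.8 and 104 CPM with dex. The groups overlapped, with a log2 fold change of -0.03 ± 0.11 and a 95% interval from -0.24 to 0.18. Dazl measured 1257, 1277 and 1071 CPM with saline and 1278, 1131 and 1292 CPM with dex (0.03 ± 0.08, interval -0.13 to 0.18). Sall4 had 0.04 ± 0.08. The RNA-binding genes Dnd1 (-0.22 ± 0.11), Nanos2 (0.23 ± 0.27) and Nanos3 (-0.16 ± 0.14) did not pass. The primordial germ cell factors Prdm1 (0.18 ± 0.18), Prdm14 (-0.49 ± 0.31) and Dppa3 (-0.09 ± 0.56) did not pass either.

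Tex101, also named after its values were seen, measured 156, 147 and 153 CPM with saline and 196, 173 and 203 CPM with dex. Its groups did not overlap (0.32 ± 0.08, adjusted p = 0.0666). The remaining genes had log2 fold changes of -0.34 ± 0.17 (Eomes), -0.18 ± 0.09 (Dmrt1), -0.11 ± 0.07 (Tex14), 0.02 ± 0.08 (Epcam), 0.05 ± 0.07 (Taf4b) and 0.09 ± 0.08 (Itga6), and none passed.

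In somatic cells, 16 of the 33 genes had enough counts to be tested, and Itga6 alone was called: it fell. Over all 16766 genes tested, 2.74% rose and 1.17% fell. Itga6 measured 162, 176 and 164 CPM with saline and 132, 124 and 129 CPM with dex. The groups did not overlap and the log2 fold change was -0.35 ± 0.07 (adjusted p = 0.0146). Leaving out dex replicate 2 or 3 or saline replicate 1 or 3 ended the call, with adjusted p from 0.061 to 0.0666 and the same direction. Groups also did not overlap for Kit, Dmrt1, Dazl and Dnd1, which makes 5 of 16 against 21.5% of all genes.

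Kit measured 9.90, 10.3 and 8.62 CPM with saline and 6.37, 2.77 and 5.93 CPM with dex in somatic cells. Dex replicate 2 was the lowest, and the log2 fold change of -0.90 ± 0.28 did not pass (adjusted p = 0.0963). Kit is also expressed by Leydig cells, and the Leydig marker sum was lower in dex replicates 2 and 3 than in any saline library. Its part in the Kit values was not tested. Dmrt1 measured 118, 124 and 118 CPM with saline and 114, 83.7 and 97.1 CPM with dex (-0.26 ± 0.10, adjusted p = 0.206). Dazl, at 1.13, 1.99 and 1.05 CPM with saline and 0.71, 0.40 and 0.99 with dex (-0.94 ± 0.64, adjusted p = 0.529), was within the range of the germ cell markers. The summed level of the 19 low genes, Dazl among them, was also lower in each dex than in each saline somatic library. The sum of the 8 germ cell markers overlapped there, at 5.22, 6.71 and 9.24 CPM with saline and 5.87, 4.15 and 5.14 with dex. The part of carried-over germ cell RNA was not tested. Prdm1 (-0.72 ± 0.46), Epcam (0.35 ± 0.23), Gfra1 (0.44 ± 0.70), Id4 (-0.18 ± 0.30), Etv5 (0.03 ± 0.11) and Uchl1 (-0.02 ± 0.12) did not pass, nor did Dnd1, Nanos3, Bcl6b, Cdh1, Tex14 and Taf4b, which lay between -0.63 and 0.50.

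**Figure D5:**
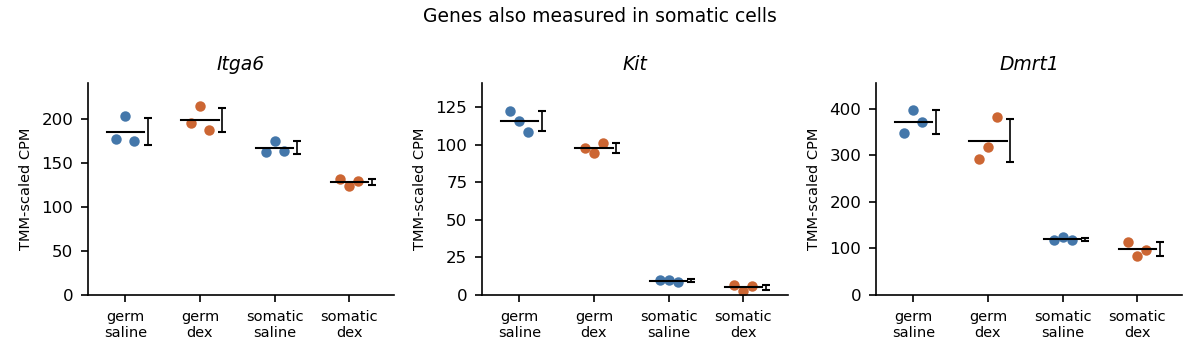
TMM-scaled CPM of Itga6, Kit and Dmrt1 in each library of the 4 groups; points are libraries, horizontal lines the mean and brackets the SD (n = 3). In somatic cells the dex libraries of Itga6 lie between 124 and 132 CPM, under all saline libraries, while in germ cells the groups overlap.

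The dex effect in germ cells was then set against that in somatic cells in a model of all 12 libraries. None of the 33 genes passed by edgeR, against 0.827% of the 20551 genes tested. At an unadjusted p under 0.05 there were 10 of the 33, against 13.3% of all genes, and DESeq2 called 2, Itga6 and Dazl, of its 648 calls over all genes. Itga6 had the lowest p: its log2 fold change was 0.48 ± 0.11 higher in germ cells than in somatic cells (adjusted p = 0.0580). Kit had a difference of 0.69 ± 0.25 (adjusted p = 0.242), Etv5 of -0.05 ± 0.15, Id4 of -0.10 ± 0.27 and Gfra1 of -0.06 ± 0.35. Dazl (1.03 ± 0.34), Cdh1 (1.22 ± 0.40), Utf1 (2.28 ± 0.66), Lhx1 (5.94 ± 1.86), Pou5f1 (0.21 ± 0.81) and Ret (1.52 ± 0.81) rested on few somatic counts. Lhx1, for example, had 0, 22 and 7 counts in saline and 0 in all dex somatic libraries. Leaving out saline germ cell replicate 2 brought Itga6 to an adjusted p of 0.0449, and leaving out saline somatic replicate 1 brought Lhx1 to 0.0441.

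Further genes of the same pathways were followed as lists. Of 18 GDNF and FGF receptor signalling genes tested in germ cells, Fgfr1, an FGF receptor, rose by a log2 fold change of 0.44 ± 0.08 and Shc1, an adaptor of receptor tyrosine kinases, fell by 0.56 ± 0.09. The shares over all genes were 0.739% and 0.507%, and the list's median was 0.09. Fgfr1 lost its call without dex replicate 3 and without either saline replicate 1 or 2 (adjusted p up to 0.0665), and Shc1 lost it without saline replicate 1 (0.0545). In somatic cells 3 of 17 rose and 2 fell, against 2.74% and 1.17% of all genes, with a median of -0.10. Ncam1, an adhesion molecule that also binds GDNF, had the lowest p of the list and rose from 43.3, 42.2 and 44.5 CPM to 88.7, 87.3 and 83.9 CPM (1.03 ± 0.10, adjusted p = 1.55e-05). Fgfr2 (0.79 ± 0.12) and Fgfr1 (0.32 ± 0.08) also rose, and Gfra2, the co-receptor of neurturin, fell by 0.53 ± 0.13. In somatic cells Fgfr1 was called only in the fit without dex replicate 1 among those with a library left out (adjusted p up to 0.123), and Gfra2 lost its call without dex replicate 2 or 3 or saline replicate 2 or 3 (up to 0.143). Stromal markers were higher in these dex libraries and their part in the list was not tested.

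Gdnf itself, the ligand of the GFRA1 and RET pair, measured 86.9, 91.9 and 96.1 CPM in saline and 76.0, 65.2 and 70.1 CPM in dex somatic cells. The groups did not overlap and it fell by 0.35 ± 0.09, at an adjusted p of 0.0495. The call was lost whichever of the 6 libraries was left out (adjusted p 0.0590 to 0.207). Kitl, the ligand of KIT, had -0.26 ± 0.10 (adjusted p = 0.213).

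Of 32 other stem and progenitor spermatogonia genes in germ cells, 2 rose and 1 fell, against 0.739% and 0.507% of all genes, with a median of -0.05. T (brachyury), a T-box factor also found in stem cell cultures, measured 20.2, 18.3 and 27.3 CPM with saline and 7.90, 11.9 and 7.79 CPM with dex. It fell by 1.26 ± 0.20 (adjusted p = 0.00669) and was called whichever germ cell library was left out. Cd9, a surface tetraspanin of stem cells, rose from 122, 121 and 122 CPM to 171, 163 and 190 CPM (0.51 ± 0.08, adjusted p = 0.00469), also in each such fit. Mycn, a proto-oncogene that GDNF acts on, rose by 0.46 ± 0.09, a call lost without dex replicate 1 or 3 or saline replicate 1 or 2 (adjusted p up to 0.119). In somatic cells 1 of 22 genes of this list passed, where 1.17% of all genes fell: Mcam, an adhesion molecule, fell by 0.32 ± 0.08; this call was lost whichever library was left out (adjusted p 0.0881 to 0.171). Of the pluripotency genes, 16 were tested in germ cells and 8 in somatic cells, and 0 passed by edgeR. In each population 2 had an unadjusted p under 0.05, where the share over all genes was 14.7% in germ cells and 16.1% in somatic cells.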

How the data were processed

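Germ cells and somatic cells of PN1 testes were sequenced as poly-A selected, paired-end libraries. The authors aligned reads to mm10 with HISAT2 2.0.5, counted them per gene with featureCounts 1.5.0-p3 and tested with DESeq2 1.20.0; the annotation release and strand setting are not given in the sources used here. The deposited counts are raw whole numbers per gene, and the deposited FPKM scale counts to gene length and library size. Tables of the authors' own comparisons hold fold changes and p-values and were not used.

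The 33 genes and the lists were chosen with earlier results of these data known. Counts were tested with edgeR 4.0.16 in R 4.3.3 (TMM, filterByExpr with a minimum count of 10, quasi-likelihood F-test over all genes passing, Benjamini-Hochberg adjustment, called at 0.05), separately for each pair of groups, and with an interaction term over 12 libraries. Standard errors and 95% intervals are from the same fit. Levels are TMM-scaled CPM. Alternatives used DESeq2 1.42.0, limma 3.58.1 on log2 FPKM with a pseudocount of 0.1 or 1, other scalings and filters, a replicate block, and leaving out each library. Per-gene values were named by rule: every gene tested between germ and somatic cells, and for dex every called gene, the 5 of lowest p, and Pou5f1, Dazl, Gfra1, Ret, Etv5, Id4 and Kit. Counting intervals and floors cover counting error only. Gene models of GENCODE M21 matched 99.9% of gene identifiers, 98.3% with the same coordinates. They were searched for overlapping exons and shared sequence, where 21.0% of 64-base words of Etv5 and 46.9% of those of Nanos2 occurred in another gene. The gene sharing most words with Etv5 was Gm4798, with 60 germ cell counts against 43029 for Etv5. For Nanos2 it was Gm45058, which overlaps it on the other strand and had 0 germ cell counts. The fits recovered known changes in simulated counts. Those changes were larger than the dex effects called among the 33 genes, so recovery at the called sizes was not tested.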

Additional observations from a re-analysis of the deposited data

Results flagged for a closer look

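For 2 genes of the GDNF and FGF receptor signalling list the dex effect differed between germ cells and somatic cells by the interaction term of edgeR. The log2 fold change of Ncam1 was lower in germ cells by 1.60 ± 0.18 (SE, adjusted p = 0.000565; a difference of -1.60): it measured 13.3, 18.4 and 13.9 CPM in saline and 11.1, 10.2 and 8.74 CPM in dex germ cells, and rose in somatic cells. The difference was called in all 20 alternative fits. For Shc1 the difference was -0.61 ± 0.13 (adjusted p = 0.0447): 124, 117 and 132 CPM in saline and 79.9, 95.2 and 79.1 CPM in dex germ cells, against 125, 149 and 123 and then 144, 133 and 133 CPM in somatic cells. It was called in 9 of 20 alternative fits, and leaving out 1 library gave an adjusted p of 0.0219 to 0.0943.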

How the results depend on the processing

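The number of the 33 genes changed by dex in germ cells, 6, was 9 with DESeq2, 11 without the filter on low counts, 0 with limma on either FPKM pseudocount, 0 with all 12 libraries in the fit, and 1 to 5 with a library left out. With the replicate block it was 1 (Tfap2c). Calls over all genes moved too, from 231 in the main fit to 711 with DESeq2 and 767 without the filter. They were 6 and 12 with limma (pseudocount 0.1 and 1) and 142 with all 12 libraries. A library left out gave 49 to 265, and the block gave 65. Same-numbered dex and saline germ cell libraries did not deviate together (correlations -0.14 to 0.06), so the numbers do not pair these. Same-numbered germ and somatic libraries had correlations of 0.063 to 0.081 with saline, where the other pairs had -0.048 to -0.016. With dex the same-numbered germ and somatic libraries had -0.020 to 0.0074. The main fit between germ and somatic cells did not pair libraries. In somatic cells the count of 1 was 2 with DESeq2, without the filter and with all 12 libraries, 0 with limma on either pseudocount, 0 to 1 with a library left out, and 1 with the block. Over all genes 655 were called in the main fit, 976 with DESeq2, 1061 without the filter and 541 with all 12 libraries. Limma called 251 and 281 (pseudocount 0.1 and 1), a library left out gave 354 to 547, and the block gave 669. Between germ and somatic cells 31 or 32 of the 33 genes were called in all alternatives (31 with the block). The exception was 15 when 10 counts were asked of every library, where 16 were tested. Scaling by library totals moved the median of all genes from 0.07 to 0.21, and Itga6 passed there at 0.22. With limma it passed at 0.20 on either pseudocount, so in 3 of 15 alternatives. For the difference of the dex effects the 0 became 2 with DESeq2, 1 with library totals, 8 without the filter, 1 with 10 counts in every library, 0 to 1 with a library left out, and 0 with the block. Over all genes 170 were called in the main fit, 648 with DESeq2, 221 with library totals and 706 without the filter. Asking 10 counts in every library gave 262, a library left out 79 to 172, and the block 104.

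Directions turned only for effects that did not pass. With a library left out, the dex effect in germ cells ran from -0.18 to 0.057 for Pou5f1, -0.051 to 0.089 for Dazl and -0.12 to 0.047 for Etv5, and in somatic cells from -0.030 to 0.13 for Etv5 (-0.025 with library totals) and -0.41 to 0.064 for Id4. The difference of the effects ran from -0.79 to 0.77 for Pou5f1, -0.34 to 0.19 for Gfra1, -0.15 to 2.73 for Ret, -0.15 to 0.025 for Etv5 and -0.38 to 0.13 for Id4. With limma it was 0.14 (pseudocount 0.1) and 0.32 (pseudocount 1) for Gfra1, and -0.20 for Lhx1 and -0.0050 for Pou5f1 (pseudocount 1). The causes were not tested.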
